A study of Mus musculus with 3 samples.

Results

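Potassium channel genes were read from 3 Illumina arrays, each hybridized with RNA of the embryonic region of wild-type mice at the early headfold (EHF) stage. They were taken as the gene symbols of the deposited signal table that begin with *Kcn*, the root given to potassium channel subunits, which gave 91 of 30854 symbols. The 3 arrays, replicates 1, 2, and 3, form a single group of untreated Cd-1 embryos cut at the border with the extraembryonic region, so the comparison the data allow is that of a gene with the background of its own array. The labels give the strain as Cd-1, whereas the study's methods name ICR mice as its wild type. Whether an array holds 1 embryo or a pool is not given, so the spread between arrays may be technical. Because a whole embryonic region was extracted, fewer cells with a channel and less RNA per cell cannot be told apart.

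Potassium channels let potassium ions leave or enter a cell along their electrochemical gradient and thereby set the resting potential and end electrical activity. Pore-forming subunits are opened by voltage, held back from outward current (inward rectifiers), open at rest (tandem-pore channels, which carry a pair of pore loops in each subunit), or opened by intracellular calcium or sodium. Auxiliary subunits form no pore of their own and change the gating or traffic of a pore subunit. Many of these genes are best known from neurons, heart muscle, and kidney, tissues that at the headfold stage exist only as precursors. The 91 symbols comprised 40 voltage-gated alpha subunits, 14 inward rectifiers, 13 tandem-pore channels, 8 calcium- or sodium-activated alpha subunits, and 16 auxiliary subunits and regulators. Not every member is therefore a channel in its own right. Classes were assigned by gene symbol, so a class name need not describe the gating of each member. All 91 match RefSeq (GRCm38.p6), and a further 7 *Kcn* genes of RefSeq were not analysed here.

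Few potassium channel genes were detected in the headfold embryo. A detection p, which compares a signal with the negative-control probes of its array, was under 0.01 on all 3 arrays for 3 of the 91 symbols (3.30%), against 20.6% of all symbols. These were *Kcnk1*, a tandem-pore channel, and the auxiliary subunits *Kcne1l* and *Kcnmb4*. No voltage-gated alpha subunit, inward rectifier, or calcium- or sodium-activated alpha subunit was among them. A further 13 of the 91 symbols passed on 1 or 2 arrays, as did 3815 of the 30854 symbols in all. The other 75 passed on none, as did 20682 of all symbols. On single arrays 9 symbols were detected on replicate 1, where 29.2% of all symbols were detected, 7 on replicate 2 (26.6%), and 8 on replicate 3 (23.3%). At least 1 array detected 16 symbols, 17.6%, against 33.0% of all symbols.

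**Figure D1:**
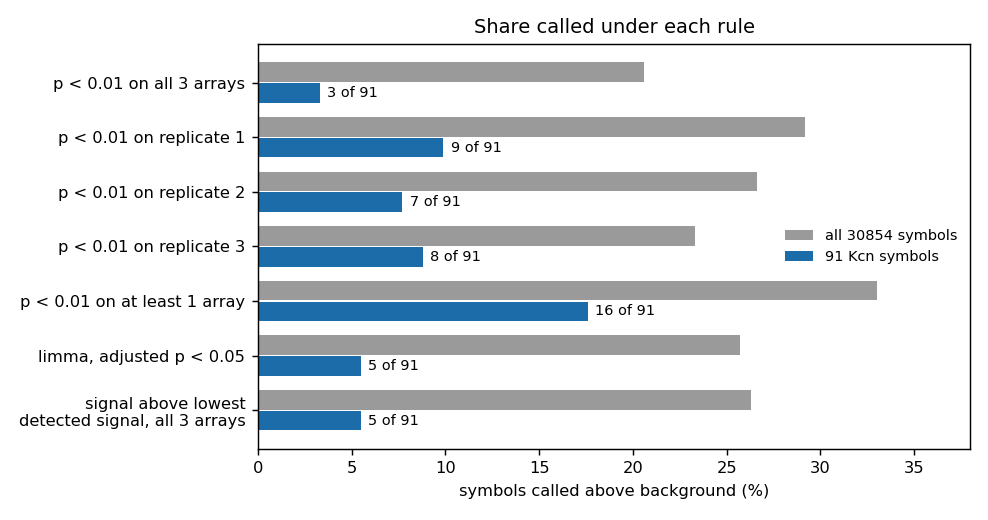
Share of symbols called above background (horizontal axis, percent) under each rule, for all 30854 symbols (grey bars) and the 91 *Kcn* symbols (blue bars, with the number called). Under every rule plotted the blue bar is shorter than the grey one, with 3 of 91 symbols for detection on all 3 arrays. The rules use the same arrays and are not independent.

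*Kcnk1* encodes TWIK-1, a channel that carries background potassium current. Its log2 signals as deposited were 8.29, 8.07, and 7.69 on replicates 1, 2, and 3, from a mean of 41.5, 40.0, and 39.5 beads for each of at least 2 probes. Its detection p, a value combined over its probes, was 0 on each array. All 3 signals lay well above the lowest signal of a single-probe symbol detected on the same array, which was 6.69, 6.66, and 6.58 and served as the background level. After background correction and quantile normalization, the level exceeded background by 2.69 log2 units (n = 3, standard error 0.15), a factor of 6.47, with single arrays at 2.89, 2.75, and 2.44. The size depends on the scale, at 1.81 log2 units with an offset of 50 and 1.38 on signals as deposited. The one-sided limma test passed (adjusted p = 1.16e-70), but this fit gave 1 shared standard error to every symbol, which makes such values too small to read as odds. With a background averaged over arrays the adjusted p was 1.62e-06, and the largest over the alternatives was 0.000755. The normalized log2 levels of *Kcnk1* were 7.57, 7.55, and 7.51, an SD of 0.03. A smaller SD was found for 2.49% of the 6357 symbols detected on all arrays, whose median SD was 0.17.

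*Kcne1l*, also named *Kcne5*, encodes a single-pass membrane protein that dampens the current of *Kcnq1* channels. It was measured by 1 probe, with log2 signals of 6.87, 6.86, and 6.64 and detection p-values of 0.00107, 0.00107, and 0.00321. The signal was close to background on every array, by 0.18, 0.20, and 0.06 on the log2 scale. On replicate 3 that margin was smaller than the standard error over the 40 beads, 0.08. After normalization the level was 0.43 above the background level (standard error 0.15, adjusted p = 0.00857 by limma), and the adjusted p ranged from 1.34e-05 to 0.267 over the alternatives. Without replicate 2 the call was lost (adjusted p = 0.267 by limma), and without replicate 1 it was lost as well (adjusted p = 0.0527). On signals as deposited it was also lost (adjusted p = 0.0562). The size for *Kcne1l* was 0.22 with an offset of 50 and 0.15 on signals as deposited. *Kcnq1*, the pore subunit it is known to act on, was detected on no array, with log2 signals of 6.53, 6.52, and 6.42 and detection p-values of 0.272, 0.103, and 0.169.

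*Kcnmb4* encodes the beta subunit found with the large-conductance calcium-activated channel in the brain. Its log2 signals were 6.80, 6.62, and 6.63, and its detection p-values were 5.14e-06, 0.00950, and 0.00121, so replicate 2 lay just inside the threshold. On replicate 2 the mean signal of its 2 or more probes was 0.04 lower than the background level (-0.04 on the log2 scale). The normalized level, 0.13 above the background level (standard error 0.15), did not pass the limma test (adjusted p = 0.678, and 0.294 to 1.00 over the alternatives). It was 0.06 without replicate 1 and 0.25 without replicate 2. The corresponding pore gene, *Kcnma1*, was detected on no array, with log2 signals of 6.49, 6.50, and 6.42. The level and the combined detection p of *Kcnmb4* therefore gave different calls.

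**Figure D2:**
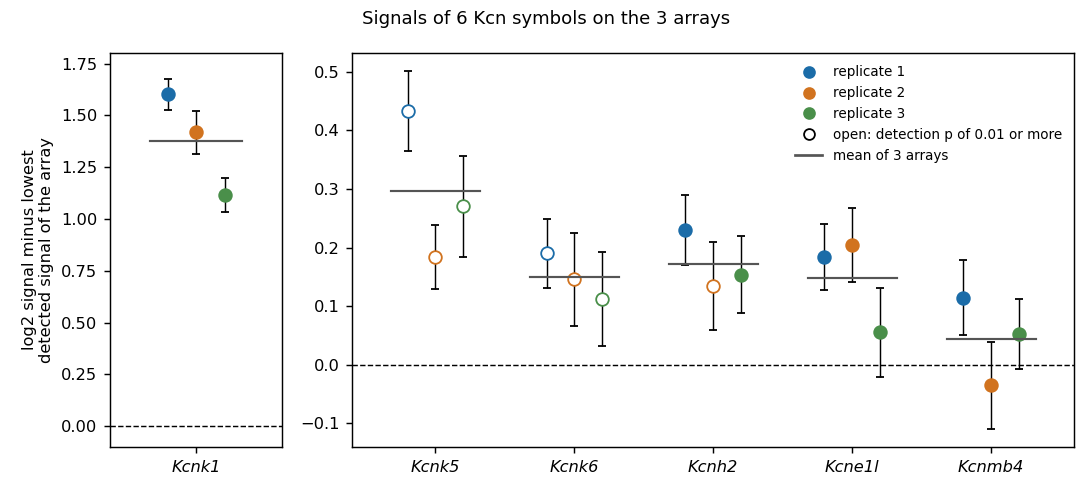
Deposited log2 signal minus the lowest detected single-probe signal of the same array (vertical axes, log2 units, with different ranges left and right) for 6 *Kcn* symbols. Points are arrays, filled where the detection p was under 0.01, whiskers are the deposited standard error over beads, grey lines are means of 3 arrays, and the dashed line is the background level; *Kcnk1* lies 1.11 to 1.60 above it, the other 5 symbols within 0.43 of it.

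Sequences before 1 annotated transcript start of each of the 3 genes detected on all arrays are shown, to describe the base composition there. They were taken from RefSeq on GRCm38.p6, 250 bases before the annotated start of a transcript, 5′ to 3′ on the strand of the gene, with CpG dinucleotides in capitals. The windows lie at chr8:125994852-125995101 on the plus strand for *Kcnk1*, chrX:142306199-142306448 on the minus strand for *Kcne1l*, and chr10:116473524-116473773 on the minus strand for *Kcnmb4*. The transcript starts of *Kcnk1* and *Kcnmb4* lie 1447 and 336 bases inside the annotated gene, so both of these windows lie wholly within the gene, and that of *Kcne1l* alone lies upstream of it. The windows of *Kcnk1* and *Kcnmb4* therefore do not describe the outermost start of the gene, and the arrays do not show which start was used.
Kcnk1: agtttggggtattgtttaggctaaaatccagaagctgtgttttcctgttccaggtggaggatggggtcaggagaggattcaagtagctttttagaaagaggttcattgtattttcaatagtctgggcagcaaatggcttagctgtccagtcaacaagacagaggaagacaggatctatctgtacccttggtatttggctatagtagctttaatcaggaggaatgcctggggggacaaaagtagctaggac
Kcne1l: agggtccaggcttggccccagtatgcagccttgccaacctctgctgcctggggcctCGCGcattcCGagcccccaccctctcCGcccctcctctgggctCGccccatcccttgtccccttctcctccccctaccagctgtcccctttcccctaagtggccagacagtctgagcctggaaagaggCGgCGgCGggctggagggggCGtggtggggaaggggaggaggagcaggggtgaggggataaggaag
Kcnmb4: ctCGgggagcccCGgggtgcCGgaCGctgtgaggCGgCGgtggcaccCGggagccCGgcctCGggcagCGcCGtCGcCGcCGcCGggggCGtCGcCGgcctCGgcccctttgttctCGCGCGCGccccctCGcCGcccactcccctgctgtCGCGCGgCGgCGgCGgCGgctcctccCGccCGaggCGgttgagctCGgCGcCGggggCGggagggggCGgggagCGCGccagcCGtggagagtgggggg

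The 3 windows have little in common. That of *Kcnmb4* holds 43 CpG dinucleotides and 83.6% G or C, that of *Kcne1l* 9 and 68.0%, and that of *Kcnk1* none and 44.4%. The median over the 91 windows available for 66 *Kcn* genes was 8 CpG dinucleotides, against 6 over all 32851 windows. The motif GGGCGG, the GC box bound by factors of the Sp family, was searched on both strands and occurs in the windows of *Kcne1l* and *Kcnmb4*, in 46.2% of *Kcn* windows, and in 32.7% of all windows. TATAAA, the core of the TATA box, was searched in the same way and is in none of the 3, in 2.20% of *Kcn* windows, and in 12.4% of all windows. These are matches of letters and show no binding.

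A further pair of tandem-pore channels, *Kcnk5* and *Kcnk6*, passed the limma test without being detected on any array. Symbols with several probes carry a mean signal and a combined detection p, and a mean cannot exceed the highest of its probes. *Kcnk5*, which encodes the alkaline-activated channel TASK-2 of kidney epithelium, had log2 signals of 7.12, 6.84, and 6.85 on at least 2 probes, above the background level on every array. Its detection p-values were 0.498, 0.345, and 0.140, so it was detected on no array. *Kcnk6*, which encodes TWIK-2, behaved alike, with log2 signals of 6.88, 6.80, and 6.69 on at least 4 probes and detection p-values of 0.0194, 0.247, and 0.0509. At least 1 probe of either gene therefore had a signal above the background level on each array, while the combined value did not call the gene. The normalized level was 0.81 above the background level for *Kcnk5* (standard error 0.15, adjusted p = 1.96e-07 by limma, and at most 0.0157 over the alternatives that tested it) and 0.45 for *Kcnk6* (standard error 0.15, adjusted p = 0.00596, and 0.000165 to 0.103 over the alternatives). With an offset of 50 these sizes were 0.43 and 0.23, and on signals as deposited 0.30 and 0.15. The call for *Kcnk6* was lost without replicate 2 (adjusted p = 0.103), and a filter that kept symbols detected on at least 1 array removed both genes from the test, leaving 3 *Kcn* symbols called. The other 10 tandem-pore symbols were detected on no array and did not pass the limma test.

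Among voltage-gated alpha subunits, *Kcnh2* alone passed the limma test. It encodes the hERG channel, which repolarizes heart muscle cells after each beat. Its log2 signals were 6.92, 6.79, and 6.73 on at least 3 probes, above the background level on all 3 arrays. The detection p was 0.000148 on replicate 1 and 0.00158 on replicate 3, but 0.0318 on replicate 2. The normalized level was 0.51 above the background level (standard error 0.15, adjusted p = 0.00148 by limma), and the call held in each of the 7 alternatives computed for this level (largest adjusted p = 0.0317). Its size was 0.26 with an offset of 50 and 0.17 on signals as deposited. *Kcna2* and *Kcna3*, delayed rectifiers of axons and lymphocytes, passed the detection threshold on 1 array each. *Kcna2* did so on replicate 1 (detection p of 0.00534) and *Kcna3* on replicate 2 (0.00427). Of this class, 36 of 40 symbols were detected on no array, as were 20682 of the 30854 symbols in all. The 36 undetected symbols had mean signals from 6.35 to 6.68, the last that of *Kcnc4*, which lay below background on replicate 3 (6.51).

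**Figure D3:**
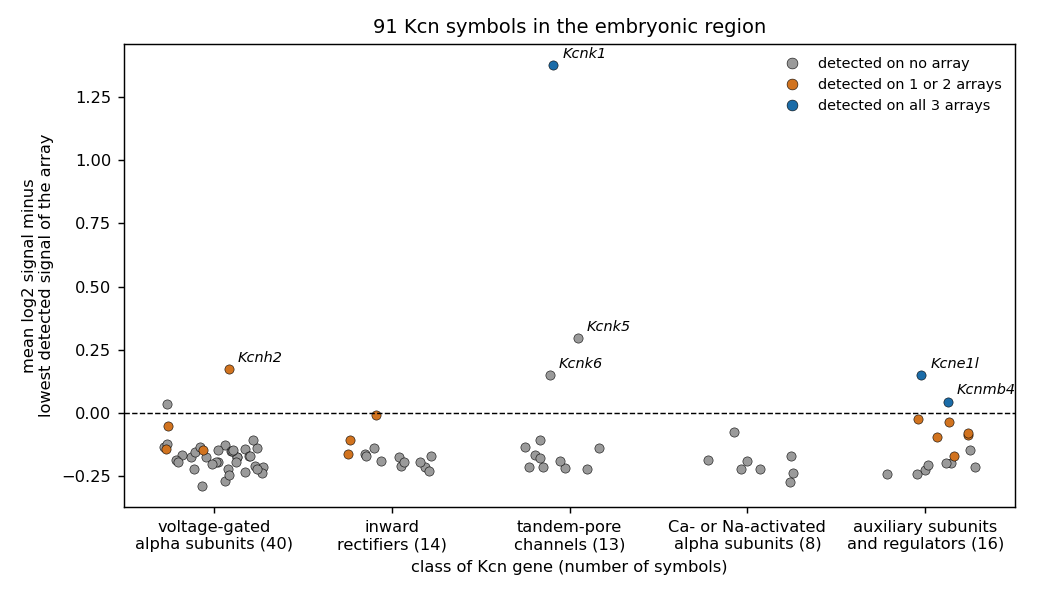
Mean over 3 arrays of the log2 signal minus the background level of the array (vertical axis, log2 units) for the 91 *Kcn* symbols, grouped by class (horizontal axis, with the number of symbols; sideways position within a class has no meaning). *Kcnk1* is 1.38 above the dashed background line, 6 further symbols are 0.04 to 0.30 above it, and the others lie below it.

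Inward rectifiers were near background throughout. *Kcnj12*, a strong rectifier of heart and skeletal muscle, had log2 signals of 6.75, 6.65, and 6.50 and passed detection on replicate 1 alone, with detection p-values of 0.00321, 0.0128, and 0.0652. *Kcnj9* on replicate 1 and *Kcnj3* on replicate 3, both subunits of channels opened by G proteins, passed on 1 array each. The other 11 of the 14 symbols passed on none, as did 20682 of the 30854 symbols in all. On 1 or 2 arrays, 3815 of all symbols passed. With 14 members, these counts are not read as a difference from all symbols. The 11 undetected symbols had mean signals between 6.41 and 6.50. They include *Kcnj8* and *Kcnj11*, the pore subunits of ATP-sensitive channels, with mean log2 signals of 6.41 (SD 0.15, n = 3) and 6.43 (SD 0.09, n = 3). *Abcc8* and *Abcc9*, the sulfonylurea receptors that complete those channels, were detected on no array either.

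The calcium- or sodium-activated alpha subunits gave no detection on any array for any of the 8 symbols, as for 20682 of the 30854 symbols in all. Their mean signals ran from 6.37 to 6.56. *Kcnn1*, a small-conductance channel of neurons, came nearest to the threshold, with a detection p of 0.0139 on replicate 1.

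Of the 16 auxiliary subunits and regulators, 2 were detected on all arrays, against 20.6% of all symbols, and 6 on 1 or 2 arrays, against 3815 of the 30854 symbols. With so few members, these counts are not read as a difference from all symbols. *Kcnrg*, whose product holds back the assembly of voltage-gated channels, passed on replicates 1 and 2 (detection p of 0.00921 and 0.00666) but not on replicate 3 (0.0927). *Kcnab1*, a cytoplasmic beta subunit of *Kcna* channels, passed on replicate 2 (0.00562). Its detection p was 0.0287 on replicate 1 and 0.0332 on replicate 3, and no other member besides *Kcnk1*, *Kcne1l*, *Kcnmb4*, and *Kcnh2* had values under 0.05 on all arrays. Its relative *Kcnab2* passed on replicate 1, *Kcnmb1*, the beta subunit of smooth muscle, on replicate 2, and the calcium-binding proteins *Kcnip1* and *Kcnip3*, which associate with *Kcnd* channels, on replicate 3. *Kcnip3* had deposited signals of 6.61, 6.61, and 6.60, but normalized levels of 4.48, 4.67, and 5.14. The other 8 symbols passed on no array.

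The 11 symbols called on a single array were spread over the arrays, with 4 on replicate 1, 3 on replicate 2, and 4 on replicate 3. Among the 43 *Kcn* symbols measured by 1 probe, 4, 3, and 2 had a detection p under 0.01 on replicates 1, 2, and 3, and none had one above 0.99 on any array. The same counts over all 21998 symbols with 1 probe were 6049, 5559, and 4861 under 0.01, and 203, 113, and 149 above 0.99.

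The median log2 signal of the 91 symbols was 6.53, 6.47, and 6.39 on replicates 1, 2, and 3, against 6.57, 6.51, and 6.42 for all symbols. Of the 75 symbols detected on no array, 72 had a mean signal below the mean background level of 6.64 (SD 0.05, n = 3), with the highest of them at 6.56. For symbols with 1 probe this follows from how the background level was defined. The 3 above it were *Kcnk5*, *Kcnk6*, and *Kcnc4*. The median number of beads was 40.5, 41, and 40 for *Kcn* symbols, and 44, 43.5, and 43 for all symbols. By the limma test 5 *Kcn* symbols lay above background (5.49%), *Kcnk1*, *Kcnk5*, *Kcnh2*, *Kcnk6*, and *Kcne1l*, against 25.7% of all symbols. The same 5 symbols exceeded the lowest detected signal of every array, as did 26.3% of all symbols. The limma test measured levels from that same background, so these rules are not independent. Signals near background do not show that a channel is absent: a weak transcript, or a transcript of few cells, was not detectable with these arrays.

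Genes of potassium transport and its partner families under other names included several with signals far above background. The sodium pump, which builds the potassium gradient that the channels use, was represented by its beta subunits, *Atp1b1* with log2 signals of 8.88, 9.07, and 8.30, and *Atp1b3* with 10.48, 10.36, and 9.48. Both had a detection p of 0 on every array. Of 16 genes of the sodium and proton pumps and their *Fxyd* regulators, 5 were detected on all arrays (31.2%), *Atp1b2* and *Fxyd6* included, beside 20.6% of all symbols. Of 25 channel partners and regulators, 6 were detected (24.0%): *Calm2* and *Calm3*, calmodulin genes whose product is the calcium sensor of small-conductance channels, *Dlg3*, a scaffold, *Wnk1* and *Sgk1*, kinases of ion transport, and *Nedd4l*, a ubiquitin ligase that removes channels from the membrane. *Sgk1* had signals of 10.59, 10.97, and 9.73. Of 15 transporters of the *Slc12* and *Slc24* families, which hold cation-chloride cotransporters and sodium-calcium exchangers, 3 were detected, *Slc24a3*, a potassium-dependent exchanger, *Slc12a9*, and *Slc24a6*, a mitochondrial exchanger that does not need potassium. *Slc12a2*, which imports sodium, potassium, and chloride, had signals of 8.62, 8.26, and 7.62 but passed on replicate 1 alone, and it too is a symbol with several probes. In the 3 lists together, 14 of 56 symbols were detected.

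**Figure D4:**
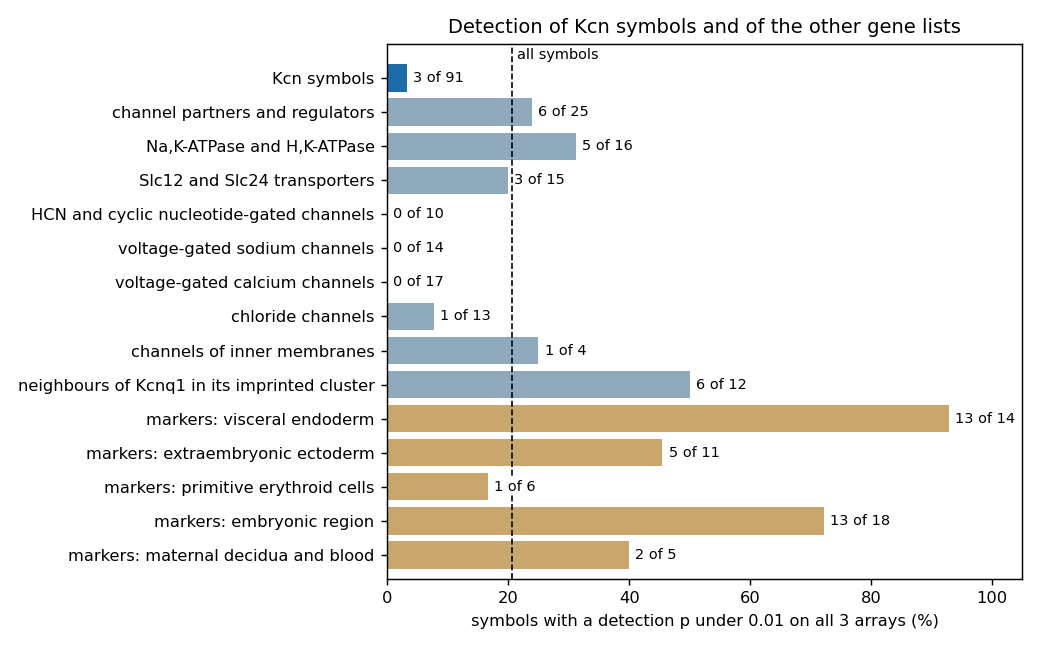
Share of symbols with a detection p under 0.01 on all 3 arrays (horizontal axis, percent) for the *Kcn* symbols and each other list of genes, with the numbers detected and on the array. The dashed line marks 20.6% of all symbols; the *Kcn* bar ends at 3.30%.

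Markers of the embryonic region and of other tissues were both detected, and their counts do not by themselves place the samples. Of 18 markers of streak, mesoderm, neural plate, endoderm, and heart, 13 were detected on all arrays, with *T* the highest. Of 14 visceral endoderm markers 13 were detected, all except *Afp*, and none was undetected on every array. By mean signal *Spink3* came first in that list, though not on replicate 3, where *Apoa1* and *Amn* gave higher signals, and signals of different probes do not rank abundance. The summed linear signals were 15279, 16322, and 7836 on replicates 1, 2, and 3. After normalization the median of these markers was highest on replicate 2, at 8.03, 8.94, and 8.26. The part of visceral endoderm in the level of any *Kcn* symbol was not tested. Of 11 genes listed as extraembryonic ectoderm markers, 5 were detected. Of these 5, *Cdx2* had the highest mean signal, though *Rhox5* was higher on replicate 2 (9.92 against 9.60). Whether the signal of these 5 genes came from that tissue was not tested. *Elf5*, *Eomes*, *Ascl2*, *Gcm1*, and *Tpbpa* were detected on no array, and the summed signals of the list were 3489, 3271, and 2083. Of 6 primitive erythroid markers *Tal1* alone was detected, with summed signals of 609, 576, and 539. Of 5 markers of maternal decidua and blood, *Des* and *Hbb-b1* were detected, *Hbb-b1* being the higher, with summed signals of 605, 549, and 487, and *Prl8a2*, *Ptprc*, and *Cd68* were not.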

How the data were processed

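Total RNA of 3 samples was hybridized to Illumina Mouse-6 arrays. The authors deposited, per gene symbol, a log2 signal not normalized between arrays, a mean number of beads (a further column of another kind, a count of beads), and a detection p-value. The deposited standard error over beads is on the linear signal scale. How probes of a symbol were averaged is not given in the sources used here; Partek is named in the submitters' processing notes. No column was left without a sample.

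A symbol was taken as having 1 probe where its bead numbers were whole and its detection p lay on steps of 1 in 936 on every array (tolerance 0.01), which held for 21998 symbols. Signals were corrected with normexp from the detection p of these symbols, then raised by an offset of 16, log2 transformed, and quantile normalized. As background, each array was given its lowest level among 1-probe symbols whose detection p was above 0 and under 0.01. Levels minus background were tested one-sided with limma over 30854 symbols (Benjamini-Hochberg, threshold 0.05). The fit gave every symbol the same standard error, so the range of adjusted p over alternatives is given beside it.

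The rule named every member detected on at least 1 array and list genes detected on all 3. Other genes named (*Kcnk5*, *Kcnk6*, *Kcnc4*, *Kcnn1*, known partners, *Slc12a2*, *Hcn2*, *Cacna2d1*, *Clcn3*, and undetected markers) were chosen after their values were seen. Some genes that the rule names are not reported here. The members and lists were chosen with earlier results of these data known. Alternatives were other detection thresholds, fewer arrays, symbols with 1 probe, median scaling, signals as deposited, an offset of 50, the mean background level, a filter on dim symbols, and leaving out each replicate. Python 3.11.15, numpy 2.4.6, pandas 2.3.3, matplotlib 3.10.9, R 4.3.3, and limma 3.58.1 were used.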

Additional observations from a re-analysis of the deposited data

How the results depend on the processing

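The count of 3 *Kcn* symbols detected on all 3 arrays became 5 with a detection p under 0.05 (adding *Kcnh2* and *Kcnab1*) and 1 with a detection p under 0.001 (*Kcnk1*). It was 5 with detection on at least 2 arrays (adding *Kcnh2* and *Kcnrg*), and 3 to 4 without a replicate. For these rules the share over all symbols is not given. On at least 1 array the count was 16 (17.6%, against 33.0% of all symbols), and by the limma test 5 (5.49%, against 25.7%). Among only the 43 *Kcn* symbols with 1 probe it was 1 (*Kcne1l*, 2.33%), against 20.9% of all symbols with 1 probe. The limma count of 5 became 3 with the filter on dim symbols, which drops *Kcnk5* and *Kcnk6* because neither was detected on any array, and was 3 to 5 without a replicate. It stayed at 5 with median scaling, with an offset of 50, and with the mean background level, and was 4 on signals as deposited. The 14 detected partner symbols became 24 with detection on at least 1 array, since fewer arrays had to pass, and 14 to 17 without a replicate.

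Of the levels, *Kcnk1* and *Kcnh2* kept their call in 7 of 7 alternatives and with the filter on dim symbols, and *Kcnk5* in the 7 but not with that filter, in which it was not tested, with *Kcnk1* from 1.38 to 2.93 above background on the log2 scale. *Kcne1l* fell to 0.15 with signals as deposited (adjusted p = 0.0562 by limma, and 1.34e-05 to 0.267 over the alternatives), and was 0.34 to 0.60 without a replicate. *Kcnk6* was 0.39 to 0.53 without a replicate. *Kcnmb4* passed in none. The cause was not tested apart from the changes in which symbols or arrays entered. No paired analysis was possible because all 3 arrays belong to 1 group.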

Other observations

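Other ion channel families are given as counts beside the 20.6% of all symbols detected on all arrays; with lists this short, a count of 0 is not read as a difference from that share. None of 14 voltage-gated sodium channel genes passed a detection p under 0.01 on any array, and none of 17 voltage-gated calcium channel genes passed on all 3. Of these 17, 4 passed on 1 or 2 arrays, among them *Cacna2d1*, an auxiliary subunit, which passed on replicates 1 and 2 with log2 signals of 6.80, 6.65, and 6.55. None of 10 pacemaker (HCN) and cyclic nucleotide-gated channel genes passed on all 3 either, and 3 of the 10 passed on 1 or 2 arrays. *Hcn2*, which conducts sodium and potassium on hyperpolarization, came nearest, with log2 signals of 6.81, 6.82, and 6.56 and detection p-values of 0.00214, 0.00107, and 0.0160. Of 13 genes listed as chloride channels, *Clns1a* alone was detected on all arrays, at 10.28, 10.14, and 9.70, and its product is better known for the assembly of splicing complexes. *Clcn3*, a chloride-proton exchanger of endosomes, had signals of 8.30, 8.13, and 7.90 but a detection p of 0.0238 on replicate 3. *Tmem38b*, a potassium-permeable channel of the endoplasmic reticulum that carries no *Kcn* symbol, was detected on all arrays, at 7.78, 7.79, and 7.51.

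*Kcnq1* lies in a cluster of imprinted genes. Of 12 genes listed around it, the adjoining *H19* and *Igf2* included, 6 were detected on all arrays, *Nap1l4* on 2, and 5 on none. Of all 30854 symbols, 20.6% were detected on all arrays, 3815 symbols on 1 or 2, and 20682 on none. With 12 genes, these counts are not read as a difference from all symbols or as a contrast with *Kcnq1*. *Kcnq1* was detected on no array, and neither were *Slc22a18*, *Tspan32*, *Ascl2*, *Trpm5*, and *Osbpl5*. Among the detected neighbours, *Cdkn1c*, an inhibitor of cell division, had log2 signals of 11.69, 11.64, and 11.42, and *Phlda2*, a regulator of placental growth, a mean of 11.84 (SD 0.24, n = 3). Allele of origin was not measured.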
